A study of Mus musculus with 7 samples.

Results

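The replication-dependent histone genes were taken as the protein-coding genes named H1f1 to H1f5 or with names that begin with H2ac, H2bc, H3c or H4c followed by a number. Of 57126 genes in the deposited table, 67 met this rule: 5 H1 genes, 18 H2A, 19 H2B, 12 H3 and 13 H4 genes. H2bc26-ps, a pseudogene by its name, is annotated as protein-coding in the table and was kept. RNA was sequenced from 4T1 cells that express mCherry, which were sorted by fluorescence out of tumors grown in the mammary fat pad of BALB/c mice. The line is a triple-negative breast cancer line of the same mouse strain. In the Botox group the fat pad had been injected with 0.3 units of Botox, a botulinum toxin preparation used for chemical denervation, in 100 µL of phosphate-buffered saline (PBS), 7 days before the tumor cells. The PBS group had received 100 µL of PBS alone. The labels name a mouse for each library, 4 for Botox and 3 for PBS, and their treatment field reads as untreated in all 7, so the groups were taken from the titles. All groups share the cell line and its mCherry label, and the host keeps its own immune cells; the labels do not state the age of the mice. The study asked how denervation before tumor growth changed the transcriptome of the cancer cells.

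Replication-dependent histone genes supply the bulk of the histones that package newly made DNA, and cells transcribe them mainly in S phase, when DNA is copied. Histones H2A, H2B, H3 and H4 form the nucleosome core, around which DNA is wound, and the linker histone H1 binds where the DNA enters and leaves it. The genes lie in clusters and mostly lack introns, and their mRNAs end in a conserved stem-loop, bound by the protein Slbp, in place of a poly(A) tail. Per the labels' protocols the libraries were made from total RNA after removal of ribosomal RNA, with a kit sold for stranded mRNA libraries.

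The stem-loop is shown because it is the feature that sets these mRNAs apart. The 16-base pattern searched, on the sense strand only, was GG, any 2 bases, CTTTT, any base, AG, any 2 bases and CC. It occurred in the annotated transcripts of 43 of the 67 genes, against 72 of 21901 protein-coding genes in all (0.329%). Its stem was GGCTCT paired with AGAGCC in every H1, H2A, H2B and H3 gene that held the motif. The H4 genes with a match had GGCCCT with AGGGCC or, in 2 genes, GGTCCT with AGGACC. The sites below come from GENCODE M21 transcripts, with the 16 bases of the motif in capitals. H4c17 and H4c2 are shown because they stood far above the rest of their group in 1 Botox library, and the others because they are among the most abundant members of their class. A gene with no match may only be annotated without its 3′ end: H3c10, for example, spans 411 bases in the table.
H1f2: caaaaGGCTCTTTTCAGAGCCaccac
H2ac19: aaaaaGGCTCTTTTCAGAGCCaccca
H2bc12: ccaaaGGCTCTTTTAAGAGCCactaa
H3c2: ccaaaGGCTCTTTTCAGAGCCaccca
H4c6: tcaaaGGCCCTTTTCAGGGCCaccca
H4c17: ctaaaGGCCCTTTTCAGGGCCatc
H4c2: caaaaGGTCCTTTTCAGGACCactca

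Promoters are shown as a description of the classes, and their motifs were not tested against the values of the libraries. RefSeq (GRCm38.p6) windows from 250 bases before to 50 bases after the start were found for 61 of the 67 genes. CCAAT on either strand was present in all 5 H1, 18 H2A, 16 H2B and 10 H3 promoters, but in 3 of 12 H4 promoters, against 41.1% of 27025 promoters of the same length. The H4 genes thus stood apart from the other classes in both the stem and this motif. TATAAA was found in 57.4% of the histone promoters and 15.7% of all promoters. The octamer ATTTGCAT, the sequence that OCT1 binds, was found in 7 of 18 H2A and 7 of 16 H2B promoters, in no H1, H3 or H4 promoter and in 1.97% of all. Neighbouring H2A and H2B genes share parts of their windows, so these counts are not independent. AAACACA, known as the H1 box, was found in 4 of 5 H1 promoters and 8.22% of all. In the windows below, capitals mark matches to these 4 motifs on either strand. H2bc12 shares its window with H2ac12, and the H4c8 window holds none of the 4.
H1f2, chr13:23738557-23738856, plus strand: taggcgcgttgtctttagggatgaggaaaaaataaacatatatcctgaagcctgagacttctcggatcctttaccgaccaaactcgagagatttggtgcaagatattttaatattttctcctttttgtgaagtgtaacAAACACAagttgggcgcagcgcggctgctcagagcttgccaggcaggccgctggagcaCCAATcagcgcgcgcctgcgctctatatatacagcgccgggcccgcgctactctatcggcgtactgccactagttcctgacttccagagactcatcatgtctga
H2bc12, chr13:22035571-22035870, plus strand: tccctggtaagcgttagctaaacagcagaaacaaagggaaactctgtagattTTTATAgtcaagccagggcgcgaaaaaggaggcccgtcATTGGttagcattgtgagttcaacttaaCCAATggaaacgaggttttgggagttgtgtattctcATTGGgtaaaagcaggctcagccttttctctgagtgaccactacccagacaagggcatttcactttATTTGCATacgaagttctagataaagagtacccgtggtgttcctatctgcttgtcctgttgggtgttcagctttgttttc
H3c10, chr13:21717378-21717677, plus strand: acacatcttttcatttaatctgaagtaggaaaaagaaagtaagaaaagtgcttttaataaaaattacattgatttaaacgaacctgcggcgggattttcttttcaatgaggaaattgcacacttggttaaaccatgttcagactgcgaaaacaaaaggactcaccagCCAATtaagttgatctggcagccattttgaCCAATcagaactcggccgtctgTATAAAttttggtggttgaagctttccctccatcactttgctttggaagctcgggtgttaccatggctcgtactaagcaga
H4c8, chr13:23530794-23531093, plus strand: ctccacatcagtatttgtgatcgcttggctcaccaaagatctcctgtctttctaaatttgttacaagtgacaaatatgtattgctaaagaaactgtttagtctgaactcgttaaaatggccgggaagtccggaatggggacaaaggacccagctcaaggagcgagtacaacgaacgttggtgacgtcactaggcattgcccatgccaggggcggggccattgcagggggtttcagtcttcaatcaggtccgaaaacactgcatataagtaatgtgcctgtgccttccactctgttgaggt

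The deposited values are TPM, which divide by gene length and sum to the same total in each library; here the length was the genomic span. Levels below are therefore per length of span, and they are low for the 19 genes annotated with spans over 1 kb, such as H2bc6 (37455 bases). For the same reason, genes with introns have low TPM beside histone genes of short span. By mean over the 7 libraries, 31 genes were over 100 TPM and 12 under 10 TPM, and the 10 genes highest in PBS held 50.2% of the PBS histone TPM. The order of the genes was nearly the same in the group means, with a rank correlation over the 67 genes of 0.99, given as a description since genes in 1 library share its depth. Nuclear protein-coding genes held 8.68, 6.996, 11.2 and 3.71% of TPM in Botox 1 to 4, against 11.7, 10.4 and 10.8% in PBS 1 to 3. TPM of most genes was thus lower in Botox 4 than in the other libraries before any gene is considered, and each value is also given relative to other nuclear genes. Estimated depth was 8.56 to 10.5 M reads in Botox libraries and 8.75 to 13.6 M in PBS libraries. Krt18, an epithelial keratin expected in 4T1 cells, was present in all 7 libraries (40.6 to 163 TPM in Botox, 137 to 167 TPM in PBS). The summed level of 10 macrophage markers was 235 to 1096 TPM in Botox and 855 to 1322 TPM in PBS libraries, and that of 4 T and NK cell markers at most 1.13 TPM in Botox and 1.35 TPM in PBS, with Cd3d at 0 in all 7.

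The 67 histone genes did not differ as a group between Botox and PBS in the same direction in every library: they were high in Botox 3 and low in Botox 4, Botox 1 and Botox 2. Their summed level was 8019, 7946, 20162 and 3562 TPM in Botox 1 to 4, against 13738, 12136 and 12684 TPM in PBS 1 to 3. Botox 3 lay above every PBS library and the other 3 Botox libraries lay below every PBS library. The means were 9923 ± 7138 TPM (SD, n = 4) after Botox and 12853 ± 815 TPM (SD, n = 3) after PBS, a ratio of 0.772. The ratio was 0.506 without Botox 3, 1.096 without Botox 2 and Botox 4, and 1.03 for TPM rescaled to nuclear protein-coding genes, so that its direction depended on the libraries and the scale. For either direction, bulk libraries cannot tell a difference in the share of S phase cells from one in histone mRNA per cell.

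Relative to all nuclear protein-coding genes the spread narrowed but Botox 3 remained apart. Histone genes held 9.24, 11.4, 18.05 and 9.60% of nuclear protein-coding TPM in Botox 1 to 4, against 11.8, 11.6 and 11.7% in PBS 1 to 3. These percents are not shares of mRNA, because TPM was divided by genomic span. The median span of the histone genes was 534 bases, which raises them beside genes with introns. The 3 PBS libraries were nearly equal, with a mean of 11.7% ± 0.067 (SD, n = 3), while the Botox mean was 12.1% ± 4.10 (SD, n = 4). Botox 3 was the highest of the 7 libraries and the other 3 Botox libraries were the lowest. By estimated reads the members took 0.368, 0.412, 0.919 and 0.269% of all reads in Botox 1 to 4, against 0.511, 0.4996 and 0.496% in PBS 1 to 3.

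**Figure D1:**
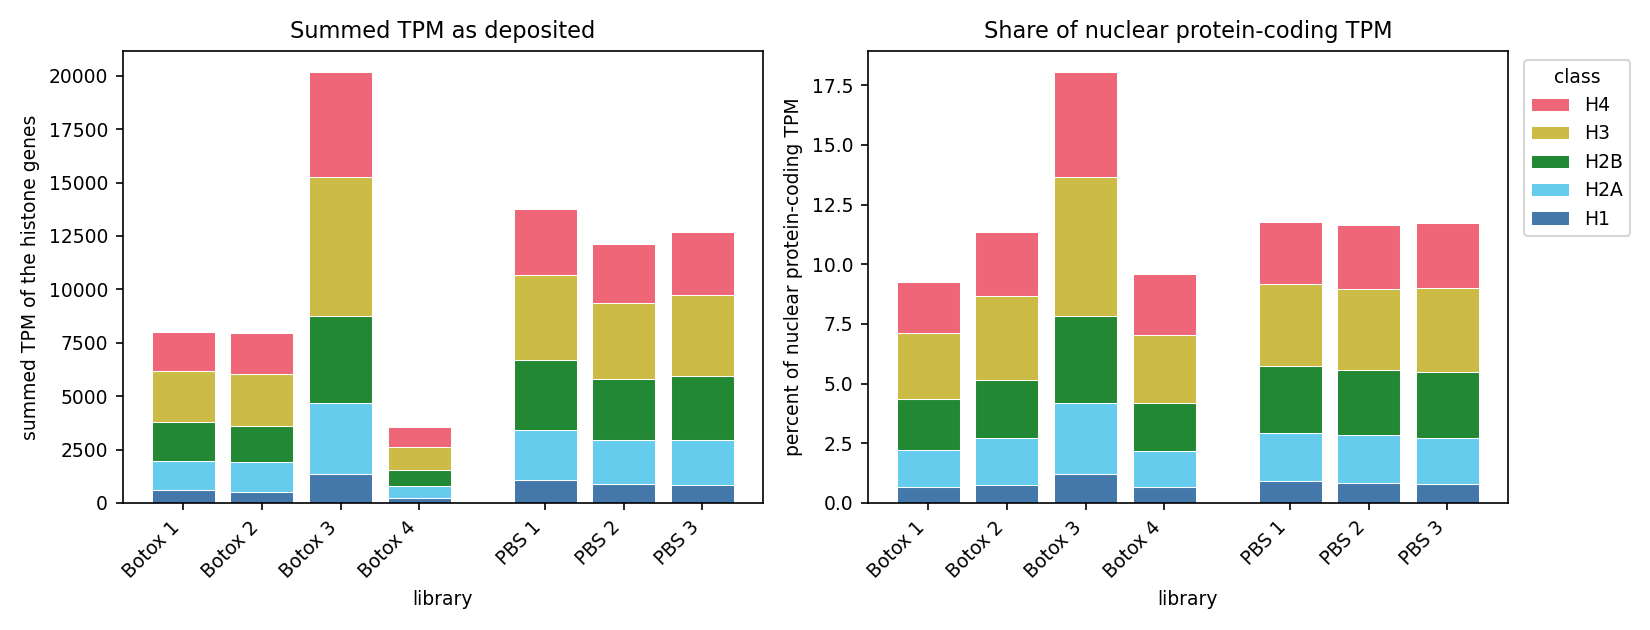
Stacked bars give, for each of the 7 libraries, the summed TPM of the histone genes by class as deposited (left, in TPM) and as a percent of nuclear protein-coding TPM (right). Botox 3 reached 20162 TPM and 18.05%, above the PBS libraries at 12136 to 13738 TPM and 11.6 to 11.8%, and the other Botox libraries lay below them.

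In summed TPM all 5 classes showed this order of libraries, by somewhat different amounts. As a percent of nuclear protein-coding TPM, H3 in Botox 2 (3.505%) was just above the PBS range of 3.41 to 3.4998%. On that scale H4 in Botox 2 (2.71%) was within the PBS range of 2.63 to 2.73%, and H2A in Botox 2 (1.995%) within that of 1.95 to 2.03%. The summed level in Botox 3, divided by the PBS mean, was 1.47 for H1, 1.51 for H2A, 1.35 for H2B, 1.72 for H3 and 1.67 for H4. In Botox 4 the same ratio was 0.260 for H1, 0.257 for H2A, 0.246 for H2B, 0.283 for H3 and 0.322 for H4. H2B was thus the lowest class in both libraries. Within the histone total, H2B made up 23.1, 21.2, 20.3 and 21.0% in Botox 1 to 4, against 23.8, 23.3 and 23.6% in PBS 1 to 3, so that the groups did not overlap. H3 made up 29.9 to 32.3% in Botox and 29.1 to 29.8% in PBS libraries, also without overlap. The H4 ranges overlapped, at 22.8 to 26.5% in Botox and 22.3 to 23.3% in PBS libraries. H1 made up 6.50 to 7.25% in Botox and 6.65 to 7.64% in PBS libraries, and H2A 15.8 to 17.6% and 16.6 to 17.2%. These shares sum to a whole, were not tested and carry no p-value.

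Gene by gene, no histone gene passed the test of Botox against PBS. The test was limma on log2(TPM + 1) over the 11260 genes that reached 1 TPM in 3 or more libraries, which kept 66 of the 67 members. H3c14 was not tested: it stood at 5.81 TPM in Botox 2, at 0.0144, 0.00123 and 0.374 TPM in Botox 1, 3 and 4, and at 0.204 to 0.788 TPM in PBS libraries. With Benjamini-Hochberg adjustment at 0.05, limma called 0 of 66 members higher and 0 lower (background 0% and 0% of 11260 genes). At an unadjusted p under 0.05 the counts were also 0 higher and 0 lower, where the background was 0.133% and 7.37%. Fold changes are on the log2(TPM + 1) scale, which understates those of weak genes, and negative values are lower after Botox. Of the 66, 63 had a negative fold change (background 93.8%), and their median was -0.62, against -0.46 over all tested genes. That gap closed with size factors, the median ratio of each library to the average library, which gave a median of -0.04 for the histone genes and -0.04 for all genes, and a negative fold change for 38 of 66 (background 56%). With size factors limma called 0 members higher and 0 lower (background 0.00888% and 0%), and 0 and 0 at an unadjusted p under 0.05 (background 2.26% and 2.13%). The median standard error was 0.55 for the histone genes and 0.36 for all tested genes.

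The same tests without Botox 3 gave other counts. No member lay with all 4 Botox libraries below or above all 3 PBS libraries (background 22.4% below and 0.151% above), nor with size factors (background 3.88% and 3.93%). Without Botox 3, 54 of 66 lay with all Botox libraries below all PBS libraries (background 43.3%), the median fold change was -1.01 against -0.56 over all genes, and 38 had an unadjusted p under 0.05, all lower (background 16.2%). With size factors and without Botox 3, 25 of 66 lay below (background 7.81%), 19 had an unadjusted p under 0.05, all lower (background 3.66%), and the median was -0.27 against -0.04. Each of these shares of members exceeded its background, but Botox 3 is the library in which the members were high. Leaving it out moves them lower by construction, so these counts cannot show an effect of Botox. No member passed the adjusted threshold in either fit; the smallest adjusted limma p was 0.27 without Botox 3 and 0.67 with size factors as well. Leaving out each library in turn was planned on the deposited scale, while its combination with size factors was added after the values were seen, and these counts describe the other 6 libraries only.

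**Figure D2:**
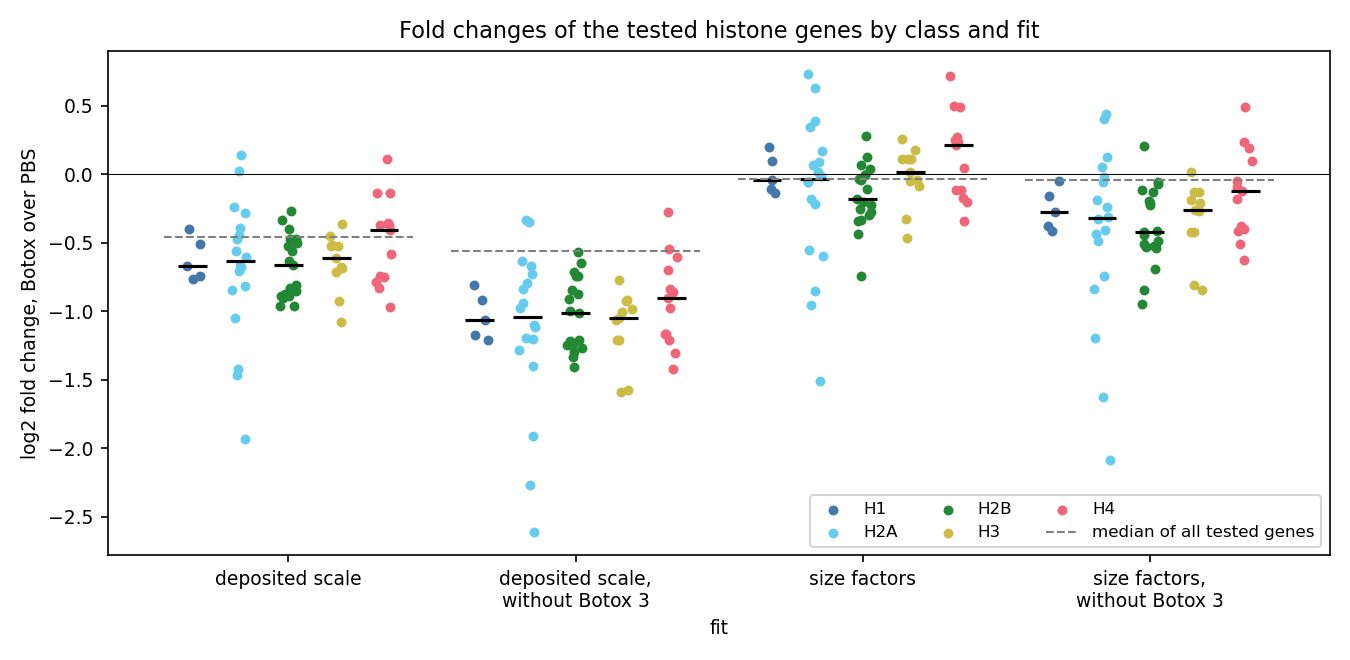
Each point is the log2 fold change, Botox over PBS, of 1 tested histone gene, by class (colour) and in 4 fits; black bars are class medians and dashed lines the median of all tested genes. The histone medians lie at -0.62, -1.01, -0.04 and -0.27 from left to right, against -0.46, -0.56, -0.04 and -0.04 for all genes.

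The most abundant H1 genes, which encode linker histones, were H1f2, H1f5 and H1f4. H1f2 (ENSMUSG00000036181, chromosome 13, 23922791 to 23924351 in mm39) stood at 209, 156, 504 and 79.5 TPM in Botox 1 to 4, against 375, 296 and 291 TPM in PBS 1 to 3. The PBS values lay between Botox 3 and the other Botox libraries, and the groups overlapped only because of Botox 3. The log2 fold change of H1f2 was -0.74 with an SE of 0.57 (limma adjusted p = 0.43), -0.11 with size factors and -1.21 without Botox 3. H1f5 averaged 212 ± 144 TPM after Botox and 302 ± 34.4 TPM after PBS, and H1f4 182 ± 119 TPM and 248 ± 25.4 TPM (SD, n = 4 and 3). H1f3 and H1f1 were at most 44.2 TPM in any library. The 5 H1 genes all had negative fold changes, from -0.76 to -0.40 (background 93.8% negative). All 5 were highest in Botox 3 (background 21%) and lowest in Botox 4 (background 75.4%).

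H2A, which pairs with H2B in the nucleosome core, had both the most negative and the most positive fold changes of the 66 genes. H2ac19 (ENSMUSG00000063954, chromosome 3, 96147065 to 96147593) was the most abundant, at 458, 517, 1081 and 201 TPM in Botox 1 to 4, against 947, 770 and 806 TPM in PBS 1 to 3. H2ac19 had a log2 fold change of -0.81 with an SE of 0.53 (limma adjusted p = 0.42). H2ac24 averaged 248 ± 179 TPM after Botox and 361 ± 18.6 TPM after PBS, and H2ac12 171 ± 110 TPM and 184 ± 10.5 TPM (SD, n = 4 and 3). Their fold changes were -0.85 and -0.29, and -0.22 and 0.34 with size factors.

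H2ac8, H2ac7 and H2ac10, 3 weaker H2A genes of the second chromosome 13 cluster, had the most negative fold changes with size factors. H2ac8 stood at 20.05, 8.36, 41.2 and 0.335 TPM in Botox 1 to 4, against 43.5, 29.2 and 43.8 TPM in PBS 1 to 3. The Botox 4 value rests on 2.43 estimated reads, and the groups overlap through Botox 3. The fold change was -1.93 ± 0.93 (SE; limma adjusted p = 0.42). H2ac7 averaged 10.3 ± 14.3 TPM after Botox and 15.98 ± 3.27 TPM after PBS, and H2ac10 31.7 ± 23.5 and 60.2 ± 13.7 TPM (SD, n = 4 and 3). These also rest on few estimated reads: 4.30 in Botox 2 and 9.63 in Botox 4 for H2ac7, and 11.6 in Botox 4 for H2ac10. At the other end, H2ac23 and H2ac22 of the first chromosome 13 cluster had fold changes of 0.14 and 0.02, and of 0.73 and 0.63 with size factors (limma adjusted p = 0.92 for both). H2ac23 stood at 36.5, 19.5, 74.9 and 9.18 TPM in Botox 1 to 4, against 22.2, 27.0 and 23.7 TPM in PBS 1 to 3. Botox 1 and Botox 3 were above all PBS libraries for this gene, and Botox 2 and Botox 4 below them. Of the read-length windows of H2ac23 and H2ac22, 91.5 and 72.5% are shared with other genes, so their values are uncertain. H2ac24, the main gene that shares windows with H2ac23, had a fold change of -0.85. For H2ac8, H2ac7 and H2ac10 the shared part was 24.5, 59.3 and 58.4%. How far the division of shared reads set the values of these genes was not tested.

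Among H2B genes, H2bc18 (ENSMUSG00000105827, chromosome 3, 96177068 to 96177449) had the highest PBS mean of all 67 genes. It stood at 696, 485, 1443 and 215 TPM in Botox 1 to 4, against 1159, 995 and 1013 TPM in PBS 1 to 3, with a log2 fold change of -0.89 and an SE of 0.57 (limma adjusted p = 0.42). H2bc12 averaged 402 ± 292 TPM after Botox and 572 ± 11.1 TPM after PBS, and H2bc8 322 ± 216 and 474 ± 32.7 TPM (SD, n = 4 and 3). All 19 H2B genes had negative fold changes (background 93.8%). With size factors 15 of 19 stayed negative (background 56%) and the class median was -0.18, lower than in any other class.

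H3 forms, with H4, the central tetramer of the nucleosome. H3c13 (ENSMUSG00000074403, chromosome 3, 96175970 to 96176458) stood at 582, 567, 1493 and 359 TPM in Botox 1 to 4, against 1007, 864 and 931 TPM in PBS 1 to 3. Its fold change was -0.52 ± 0.49 (SE; limma adjusted p = 0.48) and 0.11 with size factors. H3c10 averaged 615 ± 474 TPM after Botox and 715 ± 19.5 TPM after PBS, and H3c2 414 ± 361 and 498 ± 15.6 TPM (SD, n = 4 and 3). The PBS libraries differed by little for all 3 genes, while Botox 3 was between 1.60 and 1.88 times the PBS mean. H3c1 had a wide spread after Botox, at 59.0, 64.6, 185 and 5.38 TPM in Botox 1 to 4, against 77.4 to 96.3 TPM in PBS libraries; it is named here after its values were seen.

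H4 had the largest median ratio of Botox 3 to the PBS mean of the 5 classes, at 1.90 over its genes, against 1.31 for H2B. H4c17 (ENSMUSG00000069306, chromosome 13, 21995916 to 21996318) stood at 325, 267, 1042 and 260 TPM in Botox 1 to 4, against 368, 392 and 555 TPM in PBS 1 to 3. Botox 3 was the highest library, and the other 3 Botox libraries were close to each other and below PBS. The fold change was -0.14 ± 0.53 (SE; limma adjusted p = 0.85), and 0.50 with size factors. H4c17 shares 85.8% of its read-length windows with H4c18, so the values of these genes are uncertain. H4c18 stood at 202, 328, 422 and 69.7 TPM in Botox 1 to 4, against 486, 431 and 337 TPM in PBS 1 to 3. H4c2, a weaker gene, stood at 23.5, 22.3, 66.5 and 20.6 TPM in Botox 1 to 4, against 27.7, 23.9 and 29.8 TPM in PBS 1 to 3, with a fold change of 0.11 and, with size factors, 0.72 (limma adjusted p = 0.92). H4c8 averaged 362 ± 235 TPM after Botox and 466 ± 22.4 TPM after PBS, and H4c6 292 ± 223 and 400.7 ± 46.4 TPM (SD, n = 4 and 3). With size factors 8 of 13 H4 genes were positive and 5 negative (background 56% negative), and the class median was 0.21. The difference between classes was not tested.

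The genes lie in 5 places. The first chromosome 13 cluster (21899933 to 22227847, mm39) holds 23 genes, the second (23715220 to 24118835) 30, chromosome 3 (96127181 to 96177449) 10, chromosome 11 (58839746 to 58847657) 3, and chromosome 6 only H4c16 (136778551 to 136781414). The larger clusters' shares of histone TPM varied little. The first chromosome 13 cluster held 37.2 to 39.8% in Botox and 36.1 to 37.9% in PBS libraries. The second held 33.6 to 36.0% and 35.2 to 36.3%, and chromosome 3 held 23.8 to 26.0% and 25.9 to 26.8%. For their size, the small shares varied more. Chromosome 11 held 0.226 to 0.532% in Botox and 0.424 to 0.455% in PBS libraries, and chromosome 6 0.329 to 0.442% and 0.307 to 0.346%. Botox 3 was above the PBS mean in every cluster, by a ratio of 1.65, 1.58, 1.42, 1.92 and 2.14 for the summed level in the order just given. In Botox 4 the ratios were 0.296, 0.261, 0.274, 0.144 and 0.367. The chromosome 11 cluster, whose total is mostly H2ac25, thus had the lowest ratio in Botox 4.

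**Figure D3:**
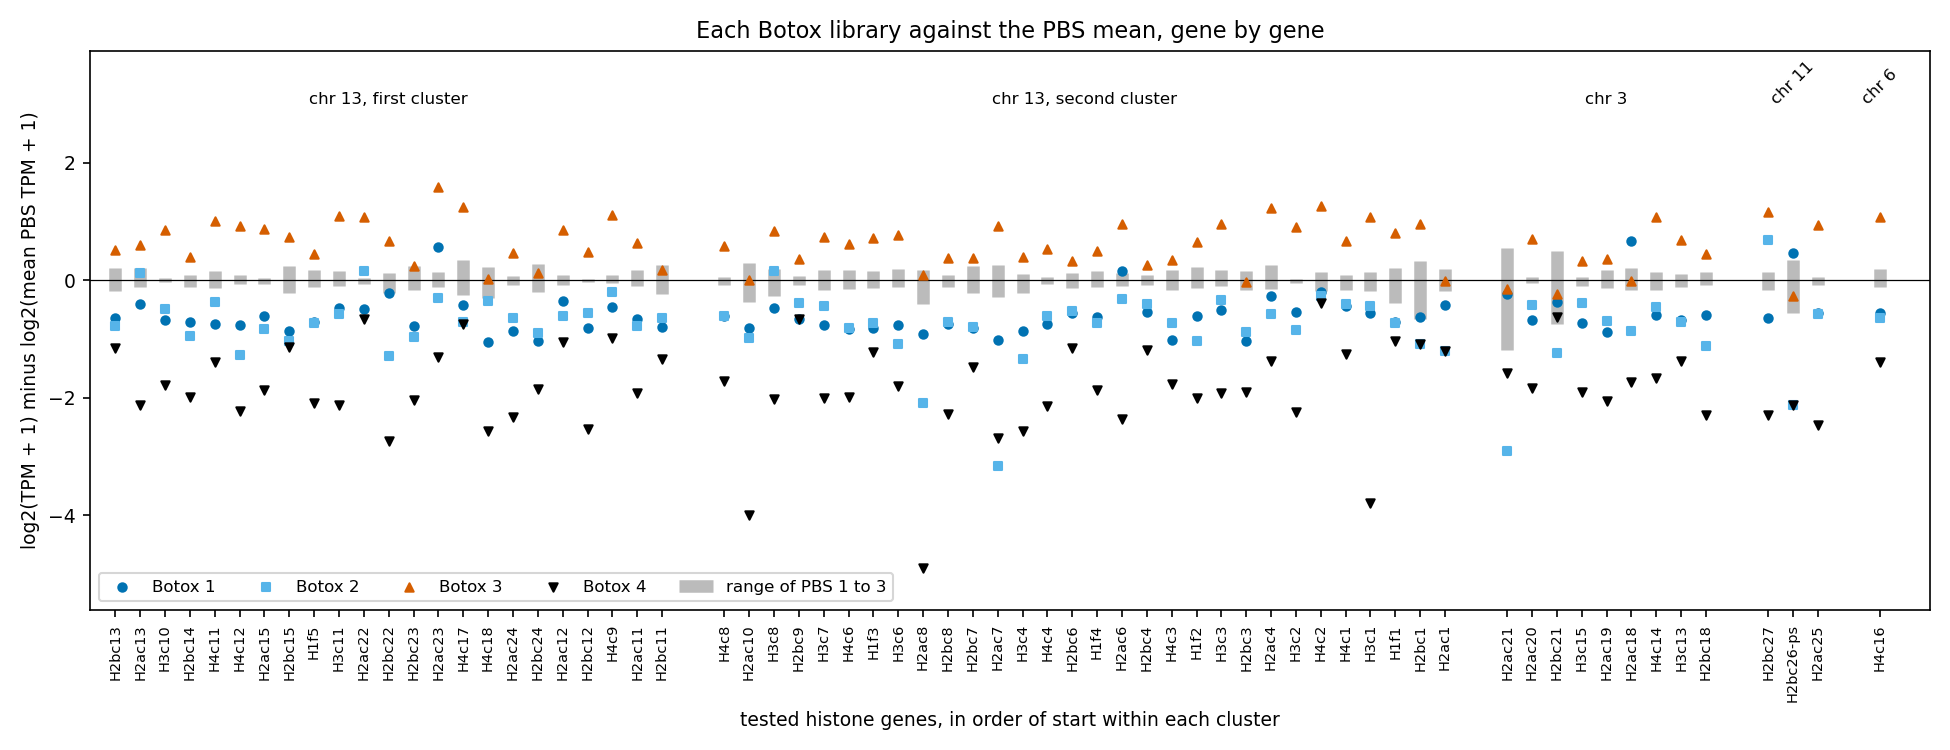
For each of the 66 tested genes, in order of start within its cluster, symbols give log2(TPM + 1) of each Botox library minus log2 of the PBS mean plus 1, and grey bars the range of the 3 PBS libraries on the same scale. Botox 3 is above all PBS libraries for 55 genes and Botox 4 below all of them for 65.

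Library by library, Botox 3 exceeded all 3 PBS libraries for 55 of 66 genes (background 24.1%), and was below all of them for 0 (background 43.6%). Botox 4 was below all PBS libraries for 65 (background 90.9%), Botox 1 for 58 (background 56.1%) and Botox 2 for 62 (background 72.7%). Since most genes had lower TPM in these libraries, the same counts were taken with size factors. Botox 3 was then above all PBS libraries for 60 (background 35.8%), Botox 1 below for 55 (background 28.5%), Botox 4 below for 45 (background 47.3%) and Botox 2 below for 38 (background 39.6%). Of the 66 tested genes, 55 had their highest TPM of the 7 libraries in Botox 3 (background 21%). All 66 had their lowest in a Botox library (background 97.6%), 59 of them in Botox 4 (background 75.4%), counts that lie nearer to those of other genes. The typical spread between libraries, as the median SD on the log2 scale with size factors, was 0.62 among Botox and 0.09 among PBS libraries for the histone genes, against 0.35 and 0.14 for all tested genes. By these medians the histone genes varied more than the typical gene among Botox libraries and less among PBS libraries. This scale understates the spread of weak genes. A single library has no replicate, so no test was made of it.

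In 14 pairs, members start close to each other and run in opposite directions, and 13 of these are an H2A and an H2B gene with 175 to 305 bases between them. H2ac12 and H2bc12, whose shared promoter is printed above, are 301 bases apart and stood at 1.82 and 1.40 times the PBS mean in Botox 3, and at 0.482 and 0.172 in Botox 4. H2ac8 and H2bc8 are 175 bases apart, the closest pair, and stood at 1.06 and 1.30 in Botox 3. In Botox 4 H2bc8 stood at 0.206, while H2ac8 had too few estimated reads for a ratio. In these 2 pairs the genes therefore did not have equal ratios. The Botox 3 ratios were closer in some other pairs, such as H2bc13 and H2ac13 (1.44 and 1.52). They were further apart in others, such as H2bc23 and H2ac23 (1.19 and 3.08). Of the read-length windows of H2bc23 and H2ac23, 91.7 and 91.5% are shared with other genes, so their ratios are uncertain. The same holds for H2ac12, H2bc12 and H2ac13, with 84.8, 60.9 and 86.1% shared. How far shared reads set the ratios of a pair was not tested.

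Several limits follow from the sequences of these genes. A read of 150 bases cannot on its own be assigned where the same 150 bases occur in another gene, and 54 of the 67 genes had at least 1 such window in GENCODE M21, with a median of 26.0% of windows per gene and over 90% in 9 genes. Among them, H2ac19, H2ac18, H3c14, H3c13 and H2bc18 had all windows shared, so the values of these single genes are uncertain. Members' values came out as whole reads less often than others: 24.1 to 31.3% in Botox and 27.8 to 28.6% in PBS libraries, against 81.0 to 89.1% and 80.1 to 80.8% for all genes of 20 to 2000 reads, where 20% lie within 0.1 of a whole number by chance. For the 13 genes with no shared window the figure was 54.8%, and for the other 54 it was 22.5%. The pattern over libraries was nearly the same in both sets: the median ratio to PBS in Botox 3 was 1.57 without and 1.54 with shared windows, and in Botox 4 0.248 and 0.257. Of the 67 genes, 24 overlap another gene in the table, 21 of them on the opposite strand, and the labels do not say whether the counting used the strand.

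Genes that act with the replication-dependent histones were read from 5 lists, and limma called 0 of their tested members in either direction. Of the variant histones, which are not made in S phase alone, 7 of 11 in the table were tested. H2az1, the H2A.Z variant, averaged 32.7 ± 12.7 TPM after Botox and 56.1 ± 5.82 TPM after PBS (SD, n = 4 and 3, limma adjusted p = 0.42). H3f3a, which encodes H3.3, averaged 12.9 ± 7.38 and 25.6 ± 7.57 TPM. In both, Botox 3 was below the PBS mean, at 44.1 and 20.6 TPM, while in the other 5 of the 7 it was above. H2ax, a variant whose mRNA is made in both a stem-loop and a poly(A) form, stood at 137, 127, 328 and 46.8 TPM in Botox 1 to 4, against 247, 220 and 232 TPM in PBS 1 to 3, and had the same order of libraries as the histone sum relative to PBS; it is named here after its values were seen. At an unadjusted p under 0.05, where the background was 7.37% lower and 0.133% higher, the lists gave these counts, all of genes with lower values after Botox. Of 15 tested genes for histone mRNA transcription and 3′ processing there were 2, Cstf2, a cleavage factor subunit, and Eri1, a nuclease that acts on histone mRNA, with log2 fold changes of -0.86 and -0.66 (-0.44 and -0.29 with size factors). Of 14 chaperone genes there were 0; Atrx and Nap1l1 had the smallest p in that list, with fold changes of -0.68 and -0.91 (-0.22 and -0.36 with size factors). Of 25 tested S phase genes there was 1, Ccna2, which encodes cyclin A2, at -1.07 (-0.49 with size factors). Of 11 G2 and M phase genes there were 4, with Ccnb1, which encodes cyclin B1, at -1.22 and Cenpf, a kinetochore protein, at -1.01 (-0.82 and -0.46 with size factors). With size factors, where the background was 2.13% lower, the counts of lower genes were 1, 0, 1 and 4 in the same order, and the adjusted limma p of each of these named genes was 0.92.

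Relative to other genes, these lists stood closer to zero in Botox 3 than the histone genes did. With size factors, the median deviation from the PBS mean in Botox 1 to 4 was -0.38, -0.15, 0.78 and -0.38 for the histone genes, against 0.01, -0.02, 0.00 and -0.08 for all tested genes. In Botox 3 it was 0.25 for the variant histones, 0.18 for the S phase genes, 0.08 for the chaperones, -0.08 for the mRNA processing genes and -0.09 for the G2 and M phase genes. The log2(TPM + 1) scale draws weak genes toward zero. Most genes of these lists are weaker than the abundant histone genes: the 36 S phase genes summed to 179 to 218 TPM in PBS libraries. How far the scale accounts for the gap was not tested. The macrophage markers stood at -1.74, 0.30, -0.36 and 0.57 in Botox 1 to 4 and at -0.19, -0.14 and 0.31 in PBS 1 to 3, and so differed most in Botox 1, where the histone genes were also low; their part in the histone values was not tested.

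**Figure D4:**
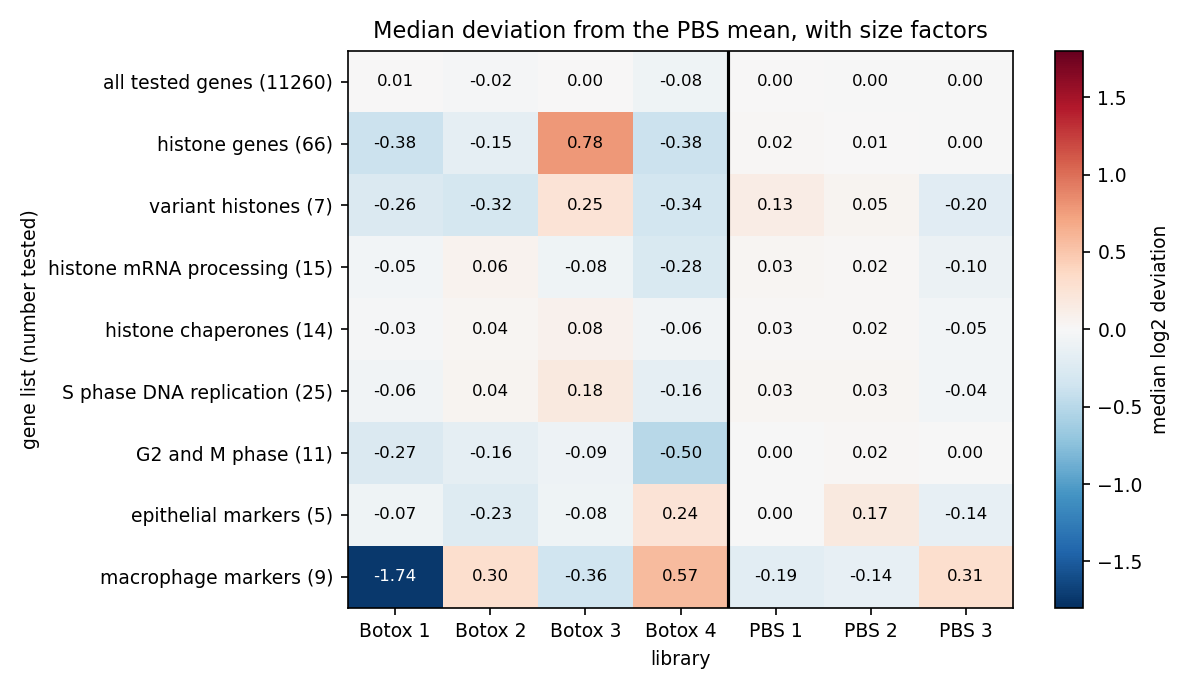
Each cell is the median, over the tested genes of a list, of the log2(TPM + 1) deviation from the PBS mean with size factors, for 4 Botox libraries (left of the line) and 3 PBS libraries. The histone genes reach 0.78 in Botox 3, while the S phase genes are at 0.18 and all tested genes at 0.00. This scale understates the deviations of weak genes.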

How the data were processed

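Expression was measured by RNA-seq in 7 libraries, 4 Botox and 3 PBS, with groups taken from the sample titles. The deposited expression table gives TPM for 57126 genes with coordinates in mm39. The authors added 0.001 to every TPM value, as the column totals show, and 0.001 was subtracted before use; the span from start to stop served as the gene length. Per the submitters' processing notes, the tools were DESeq2, SAMtools and Bowtie2 2.2.5, without their roles. The labels name neither the counter nor its handling of reads with several matches.

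Genes that reached 1 TPM in 3 or more libraries were compared by limma 3.58.1 on log2(TPM + 1) (intensity trend, group only, two-sided, Benjamini-Hochberg at 0.05) in R 4.3.3, and the fit was tested on simulated data. TPM times span fell on multiples of a step, taken as 1 read; under 20 reads, 88.8 to 90.7% of values lay within 0.1 of a whole number, and the estimates were used only to describe depth. No count test was made. Reads carry no molecular identifiers and may be copies of 1 molecule, and the p-values measure the spread between these mice. Replicate numbers shared by Botox and PBS were checked by the correlation of deviations (0.10, -0.03 and -0.19 for numbers 1 to 3) and did not pair the libraries. Clusters were split at gaps over 500 kb, and opposite starts within 1000 bases made a pair. Python 3.11.15 with pandas 2.3.3 was used for sums, motifs and windows of 150 bases.

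The members and gene lists were chosen with earlier results of these data known. Named were the 3 members of each class with the highest mean, the 3 with the largest fold change with size factors in each direction, and the 2 genes of smallest p in each list. A gene that this rule names is not reported here. Of the neutrophil, fibroblast and epithelial markers, 2, 2 and 5 were tested and 0 were called. B cell, endothelial and adipocyte markers summed to at most 1.19 TPM per list in Botox and 0.885 TPM in PBS libraries.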

Additional observations from a re-analysis of the deposited data

Results flagged for a closer look

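Among the 4 Botox libraries, 33 measures were checked for a value far from the others, and 3 met the criterion. Chance gives about 1 in 20 for a single measure. These measures share the same libraries, and H4c2 was named by its fold change in these data, so the count cannot be set against that rate. All 3 were in Botox 3. H1 genes held 1.21% of nuclear protein-coding TPM there, against 0.646 to 0.739% in the other Botox libraries. H4c17 was at 1042 TPM, against 260 to 325 TPM, and H4c2 at 66.5 TPM, against 20.6 to 23.5 TPM. Of the read-length windows of H4c17, 85.8% are shared, all with H4c18, and of those of H4c2, 63.3% are shared with other genes. H4c18 was at 422 TPM in Botox 3, against a PBS mean of 418 TPM. How far the division of shared reads set the H4c17 and H4c2 values was not tested.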

How the results depend on the processing

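Limma called 0 of the members under all 20 alternatives. Over all genes it called 0, but 22 with no filter on low values, 1 with size factors, 1 with TPM rescaled to nuclear protein-coding genes, and 0 to 74 with 1 library left out (74 without Botox 1). Members with groups that do not overlap numbered 0 (background 22.4% below and 0.151% above), but 2 without Botox 2 and Botox 4. With 1 library left out they numbered 0 to 54. Without Botox 3 there were 54 (background 43.3% below), and 25 with size factors as well (background 7.81% below). Shares over all genes are not given for the other settings, so those counts show nothing particular to the members. The ratio of summed TPM, 0.772, ranged from 0.506 to 0.937 with 1 library left out and turned to 1.096 without Botox 2 and Botox 4 and 1.03 with rescaling. The median of the members minus that of all genes was -0.17; it was 0.0051 with a pseudocount of 0.1, -0.48 with no filter and 0.14 without Botox 2 and Botox 4. With the replicate number as a block and Botox 4 left out, no gene was called, the difference of medians was -0.0058 and H4c17 turned to 0.060.

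Named members that changed sign with size factors were H2ac12 (0.34), H3c10 (0.11), H3c13 (0.11), H4c17 (0.50) and H4c8 (0.046). With rescaling they were H2ac12 (0.34), H3c10 (0.10), H3c13 (0.11), H4c17 (0.49) and H4c8 (0.041). Without Botox 2 and Botox 4 they were H1f2 (0.025), H2ac12 (0.26), H3c10 (0.090), H3c13 (0.00035), H3c2 (0.18) and H4c17 (0.43). With 1 library left out, on both scales, the values ranged from -1.21 to 0.0054 for H1f2, -1.06 to 0.055 for H1f4, -0.67 to 0.48 for H2ac12, -0.33 to 0.91 for H2ac22, -0.35 to 0.92 for H2ac23, -1.30 to 0.020 for H2bc12, -0.99 to 0.28 for H3c10, -0.92 to 0.28 for H3c13, -1.21 to 0.15 for H3c2, -0.60 to 0.70 for H4c17, -0.28 to 0.93 for H4c2, -1.21 to 0.023 for H4c6 and -0.97 to 0.17 for H4c8. The cause was not tested. Combinations of size factors with left-out libraries were added after the data were seen. A value of 3 estimated reads for a gene of 400 bases corresponds to 0.730 to 1.25 TPM in Botox and 0.917 to 1.53 TPM in PBS libraries, so weaker values are not resolved.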
